A study of Mus musculus with 24 samples.

Results

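The cerebellum of wild-type (WT) mice was compared with the liver of WT mice on 4 arrays of each tissue, 8 of the 24 arrays in all. The arrays were taken by their labels for genotype and tissue, with no measured value used in the choice. They came from 18-month-old mice, 4 per genotype, of a colony backcrossed for at least 8 generations into C57BL/6, in which WT littermates carry an Atxn2 (ataxin-2) gene with 1 CAG and CAG42 mice are homozygous for a knock-in allele of 42 CAG repeats expressed from the endogenous promoter. The series holds 4 arrays each of cerebellum, brainstem and liver from WT and from CAG42 mice, and it was made to look for effects of the expansion, so that the step between organs was not its own question. WT brainstem and the CAG42 arrays are used here to set the WT tissue difference beside another part of the hindbrain and beside other mice. They also enter the fit over all 24 arrays that gives the errors. The mean level by which probe sets and bright genes were picked includes them too.

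The cerebellar cortex is built on Purkinje cells, GABAergic projection neurons that carry its only output, and on granule cells, the small glutamatergic neurons whose parallel fibres contact them. Inhibitory interneurons, Bergmann glia and myelinating oligodendrocytes complete the tissue. Liver is dominated by hepatocytes, which secrete plasma proteins and carry out the urea cycle, bile acid synthesis, gluconeogenesis and detoxification. Genes for the ribosome, the proteasome or the respiratory chain are used by both organs, and some of them serve as references in reverse transcription PCR. Because whole pieces of tissue were measured, fewer cells of a type and less RNA per cell cannot be told apart.

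Levels are log2 values after robust multi-array averaging (RMA), so a difference of 1 is a 2-fold step. The WT cerebellum arrays correlated with each other at r of at least 0.9927 and the WT liver arrays at 0.9537 to 0.9892, with WT liver replicate 1 the farthest from its group. Between tissues r lay between 0.5748 and 0.6459. The arrays of both tissues did not share a distribution: medians were 4.50 to 4.54 in WT cerebella and 4.13 to 4.25 in WT livers, and upper quartiles 7.14 to 7.17 and 5.87 to 6.38. The Actb control probe sets gave 3′ minus 5′ differences of 0.64 to 0.76 in WT cerebella and 0.85 to 1.09 in WT livers, and their part in the results was not tested.

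A linear model with moderated errors (limma, Benjamini-Hochberg adjustment over 45037 probe sets) called 36824 probe sets different between WT cerebellum and WT liver at an adjusted p under 0.05, which is 81.8% of those tested. Of these, 20003 (44.4% of those tested) were higher in cerebellum and 16821 (37.3%) lower. The split turns with the scaling: 54.3% of the calls were higher in cerebellum as deposited, but 48.8% after quantile normalization, 48.3% after centring on housekeeping genes and 42.9% after centring each array on its median. The median difference over all probe sets, 0.08 as deposited, was -0.02, -0.07 and -0.24 after these 3 scalings. Changes smaller than this shift depend on the scaling, and larger ones can too. After quantile normalization the phosphofructokinase gene Pfkl went from 0.975 to -0.09, and the median of the RNA polymerase II list from 1.179 to 0.465. With a difference of at least 1 added to the call, 21183 probe sets (47%) were called, 13541 higher (30.1%) and 7642 lower (17%). This split was not stable either, at 9863 higher and 10200 lower after quantile normalization, 12373 and 8992 after centring on housekeeping genes, and 11228 and 10657 after median centring. Without WT liver replicate 1, 37405 probe sets were called, 22095 of them at a difference of at least 1.

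Each of 17097 genes was then represented by its brightest probe set, the one of highest mean over all arrays of the series. As most arrays of the series are hindbrain, a probe set bright in hindbrain is picked more easily than one bright only in liver. Gene counts and list medians can therefore lean to cerebellum. The gene counts here are given as deposited only, and the split of probe sets above turned with the scaling. Among genes, 5577 (32.6%) were higher in cerebellum by at least 1 and 3414 (20%) were lower by at least 1. A difference of at least 3 was met by 1696 genes (9.92%) higher and 840 genes (4.91%) lower in cerebellum, and of at least 6 by 246 and 276. The 4 cerebellum and 4 liver arrays did not overlap for 76.7% of all genes, so that separation by itself carries little. Without a minimum size, 46.5% of genes were called higher and 38.3% lower in cerebellum. In 401 of 7180 genes with several probe sets (5.58%) probe sets were called in both directions by at least 1, and values of such genes depend on the probe set. Spread was smaller in cerebellum, with a median SD over genes of 0.114 in WT cerebellum and 0.238 in WT liver. Where all 4 arrays of a tissue were at or below their own highest nonspecific control probe set, the tissue was taken as at background and the fold is given as a lower bound. WT cerebellum was at background for 2061 genes and WT liver for 1071, with a further 906 genes at background in both.

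**Figure D1:**
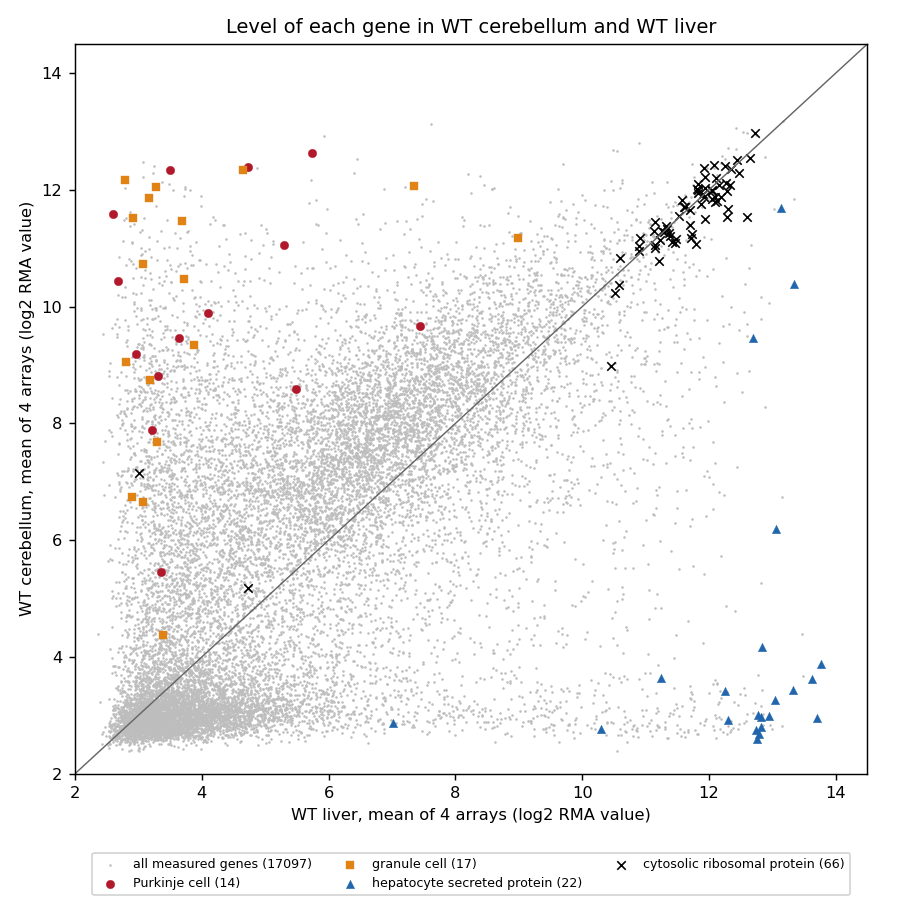
Mean log2 RMA value of each of 17097 genes in WT cerebellum (vertical axis, 4 arrays) against WT liver (horizontal axis, 4 arrays), with the genes of 4 lists in colour and the line of equal levels. Purkinje and granule cell genes lie far above the line, hepatocyte secreted proteins far below it, and most cytosolic ribosomal protein genes close to it at the upper right.

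Promoters of the genes at the extremes were read from RefSeq (GRCm38.p6), as the 300 bases that run from 250 before each start to 50 after it. The letters searched for, on both strands, were GTTAAT (bound by HNF1 factors), CAAAGTNCA (bound by HNF4), AGGTCA (nuclear receptors), CAGATG (an E-box of proneural factors), TATAAA (the TATA box), the CCAAT box CCAAT, and the GC box GGGCGG. Matches of different motifs could overlap and were counted separately. Of the genes at least 3 higher in cerebellum, 1311 had 1879 promoters in the table, of those at least 3 higher in liver 654 had 807, and of the 491 close genes described below 405 had 493. Of the 17097 measured genes, 13605 had 17065 promoters, and the table holds 32851 in all. GTTAAT lay in 4.52% of promoters of the genes higher in cerebellum, 11.6% of those higher in liver and 2.84% of those close, against 5.25% for measured genes and 7.1% of all promoters. CAAAGTNCA lay in 0.852%, 5.33% and 0.811%, against 1.3% and 1.41%. AGGTCA lay in 11.8%, 25.5% and 15.8%, against 14.3% and 16.3%. The share with CAGATG was 13.4%, 16% and 9.53%, against 13.5% and 17.2%, and that with CCAAT 35%, 40% and 39.8%, against 37.6% and 37.4%. TATAAA was in 6.97%, 17.3% and 7.91%, against 10% and 13.6%. For GGGCGG the shares were 56.4%, 34.7% and 63.7%, against 52.1% and 35.7%. The median ratio of observed to expected CpG was 0.666 for genes higher in cerebellum, 0.321 for those higher in liver and 0.838 for close genes, against 0.648 for measured genes and 0.384 over all promoters. Beside measured genes, the set higher in cerebellum was thus near the background in GGGCGG and CpG, and the set higher in liver was below it in both. These shares describe letters in a window and no test was made on them.

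The promoters of Neurod1 and Gabra6, both granule cell genes, of Alb and Fgb, which encode plasma proteins, and of the ribosomal protein gene Rpl13a are shown because these 5 genes mark the ends and the middle of the comparison. They lie at chr2:79456587-79456886, minus strand (Neurod1), chr11:42321023-42321322, minus strand (Gabra6), chr5:90460620-90460919, plus strand (Alb), chr3:83049814-83050113, minus strand (Fgb) and chr7:45128696-45128995, minus strand (Rpl13a) of GRCm38.p6, and each spans the start of its gene. Matches of GTTAAT and of GGGCGG on either strand are in capitals.
Neurod1: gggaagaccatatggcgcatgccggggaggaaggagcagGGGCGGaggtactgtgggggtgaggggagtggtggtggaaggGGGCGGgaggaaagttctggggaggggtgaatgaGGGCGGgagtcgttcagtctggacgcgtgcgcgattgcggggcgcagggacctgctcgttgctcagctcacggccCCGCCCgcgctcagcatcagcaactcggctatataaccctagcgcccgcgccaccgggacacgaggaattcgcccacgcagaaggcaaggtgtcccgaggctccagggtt
Gabra6: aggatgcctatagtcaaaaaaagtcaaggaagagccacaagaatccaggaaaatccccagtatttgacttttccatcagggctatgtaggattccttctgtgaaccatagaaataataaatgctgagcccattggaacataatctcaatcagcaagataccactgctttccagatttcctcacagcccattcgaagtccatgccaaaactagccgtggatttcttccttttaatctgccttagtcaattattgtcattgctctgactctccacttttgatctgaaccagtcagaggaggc
Alb: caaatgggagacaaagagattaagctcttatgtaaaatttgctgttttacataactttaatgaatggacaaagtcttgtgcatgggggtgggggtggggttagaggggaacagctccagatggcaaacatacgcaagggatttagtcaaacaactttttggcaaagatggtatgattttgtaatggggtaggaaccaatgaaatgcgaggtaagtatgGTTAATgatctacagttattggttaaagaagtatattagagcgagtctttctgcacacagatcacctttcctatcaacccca
Fgb: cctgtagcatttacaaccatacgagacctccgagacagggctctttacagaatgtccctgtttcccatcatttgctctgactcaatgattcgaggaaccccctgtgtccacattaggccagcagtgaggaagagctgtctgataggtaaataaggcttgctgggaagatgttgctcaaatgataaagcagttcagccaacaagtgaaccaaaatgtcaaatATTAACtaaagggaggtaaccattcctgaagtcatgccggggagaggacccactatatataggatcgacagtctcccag
Rpl13a: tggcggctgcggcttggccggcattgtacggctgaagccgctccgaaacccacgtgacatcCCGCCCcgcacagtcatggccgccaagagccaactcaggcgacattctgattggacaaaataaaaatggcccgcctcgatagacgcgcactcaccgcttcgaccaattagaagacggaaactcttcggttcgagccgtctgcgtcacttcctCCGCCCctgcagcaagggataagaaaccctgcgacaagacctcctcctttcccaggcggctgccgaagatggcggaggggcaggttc
Neurod1 held 4 GGGCGG matches and Rpl13a 2, with no GTTAAT in either. Alb and Fgb held 1 GTTAAT match each, beginning 32 and 29 bases before the start, and no GGGCGG. Gabra6, although among the 15 genes with the largest positive difference, held neither. Its CpG ratio was 0.155, compared with 0.837 in Neurod1, 0.272 in Alb, 0.311 in Fgb and 1 in Rpl13a.

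All 14 measured genes of the Purkinje cell list of 20 were higher in WT cerebellum by at least 1, with a median difference of 5.81, against 0.13 over all genes. Calb1, the calcium buffer calbindin (chromosome 4), had 12.29, 12.35, 12.36 and 12.35 in WT cerebella, against 3.40, 3.48, 3.58 and 3.51 in WT livers. The difference was 8.85 ± 0.13 (SE, adjusted p = 9.18e-26), 460-fold, with little spread within either tissue. Pcp2, a G protein regulator found in Purkinje and bipolar cells, had 12.51, 12.31, 12.36 and 12.41 in WT cerebella, against 4.42, 4.71, 5.25 and 4.51 in WT livers. It differed by 7.67 ± 0.23 (SE, adjusted p = 2.43e-19), with WT liver replicate 3 the highest of the livers. Ppp1r17, a protein phosphatase inhibitor that is a substrate of cGMP-dependent kinase, had 10.47, 10.21, 10.51 and 10.58 in WT cerebella and was at background in all 4 WT livers, at least 129-fold lower than in cerebella. Dner, a Notch ligand of Purkinje dendrites, had a measured difference of 8.99 ± 0.10 (SE, adjusted p = 9.32e-28) with livers at background too, at least 286-fold higher.

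The smallest Purkinje differences were those of genes with a level of their own in liver or a low one in cerebellum. Rora, the nuclear receptor mutated in staggerer mice, had 9.62, 9.94, 9.65 and 9.45 in WT cerebella and 8.08, 7.68, 6.66 and 7.35 in WT livers, a difference of 2.22 ± 0.23 (SE, adjusted p = 4.2e-09). Car8, a carbonic anhydrase relative without enzyme activity that binds the IP3 receptor, had 8.19, 7.998, 8.95 and 9.21 in WT cerebella and 5.30, 5.22, 5.49 and 5.92 in WT livers. The 4 cerebella spread over more than 1 unit and still lay above every liver, at 3.11 ± 0.25 (SE, adjusted p = 6.19e-11). Homer3, a scaffold of metabotropic glutamate receptors, differed by 4.68, and Lhx5, a LIM homeodomain factor, by 2.10 at a cerebellar mean of only 5.46 ± 0.23 (SD, n = 4).

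Against WT brainstem, 12 of the 14 Purkinje genes were higher in WT cerebellum and 1 was lower, where 14.1% of all genes were higher and 36.3% lower. Calb1 averaged 12.34 ± 0.03 in WT cerebellum and 10.14 ± 0.36 in WT brainstem, Pcp2 12.40 ± 0.09 and 8.48 ± 0.48, and Ppp1r17 10.44 ± 0.16 and 6.67 ± 0.52 (SD, n = 4 each). For Car8 the WT brainstems had 4.16, 3.99, 4.001 and 4.78, so that none of them reached a WT liver, while every WT cerebellum lay above both tissues. The member that was lower in cerebellum than in brainstem was Cck, the neuropeptide cholecystokinin, which was named after its values were seen and differed from brainstem by -0.45 ± 0.11 (SE, adjusted p = 0.00198).

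Of 17 measured granule cell genes (20 listed), 16 were higher in WT cerebellum by at least 1, and the median difference was 6.25. Neurod1, a basic helix-loop-helix factor needed for granule neurons, had 12.24, 12.30, 11.98 and 12.14 in WT cerebella, against 2.92, 2.77, 2.72 and 2.76 in WT livers, all at background. Its difference of 9.37 ± 0.16 (SE, adjusted p = 1.17e-24) stands for a step of at least 426-fold. Gabra6, the α6 subunit of the GABA-A receptor and the classical marker of mature granule cells (chromosome 11, with the promoter printed above), had 12.09, 12.09, 11.98 and 12.03 in WT cerebella, against 3.29, 3.16, 3.32 and 3.34 in WT livers, a difference of 8.77 ± 0.23 (SE, adjusted p = 1.12e-20). Cbln3, a cerebellin secreted by granule cells, had 11.89, 11.97, 11.67 and 11.93 in WT cerebella, against 3.25, 3.04, 3.13 and 3.25 in WT livers, at least 346-fold higher in cerebellum. The cerebella hardly varied for these genes, Gabra6 averaging 12.05 ± 0.05 (SD, n = 4).

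Calb2, the calcium binding protein calretinin, differed by 8.60 ± 0.10 (SE, adjusted p = 2.1e-27). Reln, the extracellular glycoprotein reelin that granule cells secrete, was the member with the highest liver level: 11.19, 11.26, 11.26 and 11.03 in WT cerebella and 8.89, 9.11, 8.98 and 8.94 in WT livers, 2.20 ± 0.10 (SE, adjusted p = 6.35e-16). Slc17a7, the vesicular glutamate transporter VGLUT1, had a cerebellar mean of 6.65 ± 0.10 and a difference of 3.58, and Zic4, a zinc finger factor of the developing cerebellum, 3.84. Barhl1, a homeobox factor of the rhombic lip, just missed the minimum of 1 at 0.998 ± 0.11 (SE, adjusted p = 1.01e-08). Relative to WT brainstem, 16 of the 17 were higher in cerebellum. Neurod1 exceeded brainstem by 3.94 ± 0.16 (SE, adjusted p = 8.26e-16), Cbln3 by 3.93, Gabra6 by 3.88 and Reln by 2.15.

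**Figure D2:**
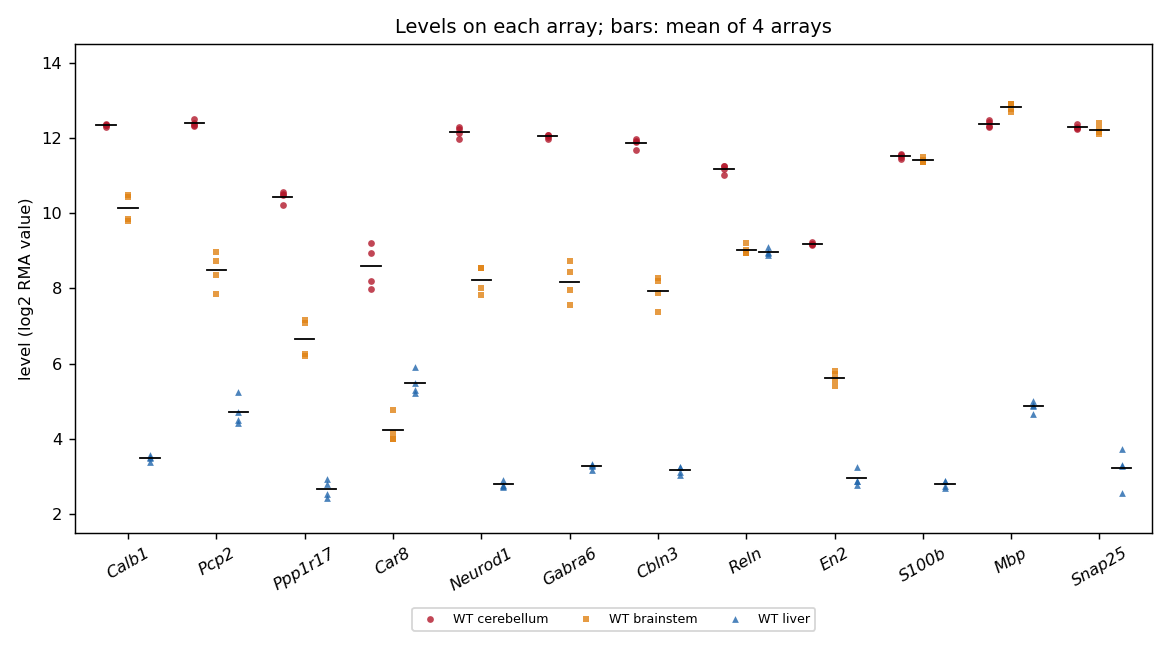
Log2 RMA value (vertical axis) of 12 genes on each WT cerebellum (circles), WT brainstem (squares) and WT liver (triangles) array, with bars for means of 4. Purkinje, granule and En2 levels step down across the tissues, except that brainstem lies below liver for Car8 and level with it for Reln, while S100b and Snap25 are nearly as high in brainstem as in cerebellum and Mbp is higher there.

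Of 12 measured markers of inhibitory interneurons 11 were higher in WT cerebellum by at least 1. Pvalb, the calcium buffer parvalbumin of basket, stellate and Purkinje cells, had 12.39, 12.33, 12.41 and 12.48 in WT cerebella, against 3.02, 3.29, 3.41 and 3.25 in WT livers, a difference of 9.16 ± 0.09 (SE, adjusted p = 1.21e-28). Gad1, glutamate decarboxylase, and Slc32a1, the vesicular GABA transporter, were at background in every WT liver and at least 203-fold and at least 60.6-fold higher in cerebellum. Nos1, neuronal nitric oxide synthase, differed by 6.14, and Gad2 by 3.73. The exception was Sst, somatostatin, with 4.02, 3.49, 4.89 and 5.04 in WT cerebella and 3.17, 3.35, 3.79 and 3.78 in WT livers. It was called at 0.84 ± 0.26 (SE, adjusted p = 0.00531), but not after median centring (0.52 with an adjusted p of 0.0605), and WT brainstem had 9.89 ± 0.20 (SD, n = 4).

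Of 17 measured hindbrain transcription factors 12 were higher in WT cerebellum by at least 1. As means over probe sets 8 were higher and 1 lower by at least 1, and the list median fell from 2.145 to 0.938. En2, a homeobox factor of the midbrain-hindbrain boundary that stays on in granule cells, had 9.19, 9.19, 9.14 and 9.23 in WT cerebella, against 2.89, 3.26, 2.77 and 2.88 in WT livers, 6.24 ± 0.11 (SE, adjusted p = 2.44e-24). It was also 3.57 above WT brainstem. Eomes and Uncx, which mark unipolar brush cells and cerebellar nuclei neurons in mouse, averaged 6.63 ± 0.45 and 7.02 ± 0.28 in WT cerebella and were at background in the WT livers. Atoh1, a factor of the embryonic rhombic lip, had 3.29, 3.32, 3.23 and 3.10 in WT cerebella and 2.82, 3.04, 3.10 and 3.12 in WT livers. Its call at 0.21 ± 0.08 (SE, adjusted p = 0.0227) was lost without WT cerebellum replicate 1 (0.19 with an adjusted p of 0.0567), WT cerebellum replicate 2 (0.18 with an adjusted p of 0.067) or WT liver replicate 1 (0.15 with an adjusted p of 0.0975), and its sign turned after median centring (-0.11). Lmx1a and En1 were at background in all 4 WT cerebella. Meis2 had 4.51 ± 0.60 in WT cerebellum and 4.39 ± 0.37 in WT liver, which did not pass at 0.13 ± 0.25 (SE, adjusted p = 0.633) but was -1.27 with an adjusted p of 2.14e-06 as a mean over its probe sets, with 9.002 ± 0.09 in WT brainstem (SD, n = 4 each).

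Bergmann glia and astrocytes support synapses and take up glutamate, and 13 of 15 measured markers were higher in WT cerebellum by at least 1, while 2 were lower. S100b, a calcium binding protein of these cells, had 11.44, 11.48, 11.54 and 11.58 in WT cerebella, against 2.87, 2.88, 2.74 and 2.71 in WT livers, all at background, and was at least 270-fold higher. Aqp4, the water channel of astrocyte endfeet, differed by 7.03 ± 0.12 (SE, adjusted p = 2.69e-24), and Sparcl1, a secreted matrix protein that promotes synapse formation, by 5.89. Aldoc, aldolase C or zebrin II, which marks stripes of Purkinje cells as well as astrocytes, was the brightest at 13.14, 13.14, 13.14 and 13.11 in WT cerebella, against 8.03, 7.52, 7.49 and 7.41 in WT livers. The members that went the other way have strong liver expression. Aldh1l1, a folate enzyme widely used as an astrocyte marker in brain, had 8.26, 8.38, 8.57 and 8.27 in WT cerebella and 12.30, 12.24, 12.18 and 12.24 in WT livers, -3.87 ± 0.10 (SE, adjusted p = 3.03e-21). Slc1a2, the glutamate transporter GLT-1, was -1.64 ± 0.24 (SE, adjusted p = 9.03e-07) for its brightest probe set but -0.22 with an adjusted p of 0.235 when its probe sets were averaged, so its direction rests on the choice of probe set.

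All 15 measured oligodendrocyte genes were higher in WT cerebellum than in WT liver, 14 of them by at least 1, and all 15 were lower in it than in WT brainstem. Mbp, myelin basic protein, had 12.32, 12.29, 12.49 and 12.41 in WT cerebella, 12.78, 12.69, 12.90 and 12.91 in WT brainstems and 4.66, 4.89, 4.90 and 5.01 in WT livers. The difference of cerebellum from liver was 7.51 ± 0.09 (SE, adjusted p = 1.45e-27) and that from brainstem -0.44 ± 0.09 (SE, adjusted p = 0.000171). Olig1, a lineage factor, and Mal and Ugt8a, a myelin proteolipid and the enzyme of galactosylceramide synthesis, differed from liver by 6.22, 5.89 and 5.49. They differed from brainstem by -1.52, -1.58 and -1.45. Mog, a surface protein of myelin, had the smallest difference from liver among those past 1 (1.98). Pdgfra, the growth factor receptor of precursor cells, was at background in both tissues, and its call at 0.37 was lost without WT cerebellum replicate 1 (0.29 with an adjusted p of 0.105) or WT liver replicate 1 (0.35 with an adjusted p of 0.0566).

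The machinery of transmitter release was among the highest lists, with a median of 6.38 and 20 of 21 measured genes past 1. Snap25, a SNARE protein of the presynaptic membrane, had 12.24, 12.28, 12.27 and 12.37 in WT cerebella, against 2.57, 3.27, 3.74 and 3.31 in WT livers, 9.07 ± 0.15 (SE, adjusted p = 1.97e-24). WT liver replicates differed from each other by over 1 unit for this gene without coming near any cerebellum. Cplx1, a complexin that clamps SNARE complexes, differed by 8.62, the dynamin Dnm1, which pinches off vesicles, by 8.45 and the endophilin Sh3gl2 by 8.75. Syt1, the calcium sensor of release, had a liver level of 7.40 ± 0.47 and so the smallest difference of those called, 4.10 ± 0.18 (SE, adjusted p = 3.04e-16). Stx1a, another SNARE protein, had 3.27 ± 0.23 in WT cerebellum and 3.17 ± 0.23 in WT liver, a difference of 0.10 ± 0.14 (SE, adjusted p = 0.511) with an interval of -0.19 to 0.39, while WT brainstem had 5.71 ± 0.15 (SD, n = 4 each). After quantile normalization Stx1a passed the test at 0.31 with an adjusted p of 0.0368.

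Of 17 ion channel genes 16 were higher in WT cerebellum by at least 1. Kcnc1, the fast potassium channel Kv3.1 of granule cells, had 11.43, 11.46, 11.51 and 11.53 in WT cerebella, against 2.65, 2.84, 2.69 and 2.88 in WT livers, all at background. Kcna1, the Kv1.1 channel of basket cell terminals, and Scn1a, the sodium channel Nav1.1, differed by 7.60 and 6.28, and Cacnb4, a calcium channel β subunit, by 6.88. Kcnc2 had only 5.34 ± 0.38 in WT cerebellum, at least 3.76-fold above liver, and 9.37 ± 0.20 in WT brainstem. Among 11 transmitter receptors 9 passed, with Gabrb2, a GABA-A receptor subunit, at 7.83, and Cnr1, the cannabinoid receptor of parallel fibre terminals, at 7.57. The glutamate receptor subunit Gria1, which Bergmann glia carry, was at 7.38 ± 0.11 (SE, adjusted p = 1.1e-25). Grin2a and Glra1, NMDA and glycine receptor subunits, were called lower in cerebellum (-0.76 and -0.53), at cerebellar means of 2.97 ± 0.03 and 3.45 ± 0.28 (SD, n = 4 each) that were at or near background. Grin2b had 4.83, 4.94, 4.75 and 4.61 in WT cerebella and 3.31, 3.01, 3.03 and 2.91 in WT livers, and 7.87 ± 0.27 in WT brainstem.

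Neuronal RNA-binding proteins direct alternative splicing and mRNA stability in neurons, whereas REST represses neuronal genes elsewhere. Rbfox1, a splicing factor linked to ataxin-2 by its older name, ataxin-2 binding protein 1, had 11.36, 11.56, 11.36 and 11.36 in WT cerebella, against 2.80, 2.81, 3.04 and 3.09 in WT livers, all at background. It was at least 252-fold higher. The Hu protein Elavl4, which stabilises AU-rich mRNAs, differed by 7.07 ± 0.11 (SE, adjusted p = 1.62e-25) and Nova1, a splicing factor, by 5.44. Of the 16 measured genes 11 were higher by at least 1 and 4 were lower. Rest itself had 5.15, 5.66, 5.36 and 5.10 in WT cerebella and 7.47, 7.62, 7.41 and 6.98 in WT livers, -2.05 ± 0.15 (SE, adjusted p = 7.89e-12). Ptbp1, the repressive splicing factor that neurons switch off, had 7.72, 7.57, 7.64 and 7.68 in WT cerebella and 9.28, 9.16, 8.98 and 8.81 in WT livers, -1.41 ± 0.09 (SE, adjusted p = 1.76e-12). The other 2 lower members were splicing factors of brain, Khdrbs3 at -1.38 ± 0.13 (SE, adjusted p = 1.67e-09) and Nova2, whose cerebellar arrays were at background in this probe set (-1.49).

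Atxn2, the gene carrying the expansion in CAG42 mice, was expressed in both tissues (chromosome 5). It had 9.89, 10.05, 9.96 and 10.03 in WT cerebella, against 9.04, 8.76, 8.08 and 8.21 in WT livers. The 4 cerebella lay above all livers, by 1.46 ± 0.16 (SE, adjusted p = 7.53e-09), or 2.75-fold. The size depended on processing, at 0.84 as a mean over its probe sets and 0.88 after quantile normalization. Pabpc1, the poly(A)-binding protein that ataxin-2 binds, went the other way, with 10.74, 10.84, 10.86 and 10.81 in WT cerebella and 11.37, 11.50, 11.56 and 11.56 in WT livers, -0.69 ± 0.07 (SE, adjusted p = 1.39e-09). Among 13 measured ataxia disease genes 8 were higher in cerebellum by at least 1 and 1 was lower, but only 3 were higher by at least 1 after quantile normalization. Syne1, a giant nuclear envelope spectrin, led at 5.04 ± 0.18 (SE, adjusted p = 5.08e-18), with a level of 11.58 ± 0.03 in WT cerebellum and 6.54 ± 0.48 in WT liver (SD, n = 4 each). Atxn1 and Atxn10 differed by 2.35 and 1.80. Tgm6, a transglutaminase, was -1.92 ± 0.25 (SE, adjusted p = 1.87e-07), while Aptx and Ano10, a DNA repair factor and a membrane protein, did not pass, with intervals of -0.05 to 0.47 and -0.08 to 0.48. After quantile normalization both were called lower in cerebellum, Aptx at -0.89 with an adjusted p of 1.28e-07 and Ano10 at -0.82 with an adjusted p of 8.99e-07.

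In the liver direction, all 22 measured genes of hepatocyte secreted proteins were lower in WT cerebellum by at least 1, with a median of -9.78. Alb, serum albumin, had 3.32, 3.001, 2.77 and 2.73 in WT cerebella, all at background, against 13.69, 13.75, 13.69 and 13.68 in WT livers, -10.75 ± 0.16 (SE, adjusted p = 9.51e-26), at least 1420-fold lower. Fgb, the fibrinogen β chain, had 2.45, 2.86, 2.67 and 2.74 in WT cerebella, against 12.84, 12.78, 12.81 and 12.75 in WT livers. Serpinc1, the coagulation inhibitor antithrombin, and Kng1, a kininogen, differed by -10.16 and -10.01, both with cerebella at background.

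A few secreted proteins kept a cerebellar level. Trf, the iron carrier transferrin that oligodendrocytes also make, had 10.28, 10.54, 10.24 and 10.51 in WT cerebella, against 13.35, 13.35, 13.33 and 13.35 in WT livers, -2.95 ± 0.13 (SE, adjusted p = 6.27e-16), and 11.47 ± 0.18 in WT brainstem. Vtn, vitronectin, an adhesion protein that pericytes also make, had 9.47 ± 0.05 in WT cerebellum and 12.69 ± 0.08 in WT liver (SD, n = 4 each). Ttr, the thyroxine carrier transthyretin, had 11.88, 12.72, 12.45 and 9.73 in WT cerebella and 13.06, 13.20, 13.19 and 13.11 in WT livers. Its difference of -1.44 ± 0.37 (SE, adjusted p = 0.000999) was -0.79 with an adjusted p of 0.000103 without WT cerebellum replicate 4. Transthyretin is also the main product of the choroid plexus, and 3 other choroid plexus genes were lowest in the same array: the potassium channel Kcnj13 had 6.49, 7.71, 7.39 and 5.36 in WT cerebella, the anti-ageing protein Kl 4.82, 6.05, 5.35 and 3.48 and the folate receptor Folr1 5.06, 6.14, 5.62 and 3.52. In WT livers Kcnj13 averaged 3.53 ± 0.13, Kl 2.72 ± 0.11 and Folr1 3.72 ± 0.12 (SD, n = 4 each). Over the 10 measured choroid plexus genes 5 were higher in cerebellum by at least 1 and 1 was lower, Aqp1, a water channel that liver also makes (-5.46). How far plexus attached to the tissue entered the level of Ttr was not tested.

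Hepatocyte transcription factors followed, with 14 of 16 lower in WT cerebellum by at least 1 and a median of -5.11. Hnf4a, the nuclear receptor at the centre of the hepatocyte network, had 2.86, 2.93, 2.77 and 3.11 in WT cerebella, against 11.21, 11.001, 11.20 and 10.96 in WT livers, -8.18 ± 0.11 (SE, adjusted p = 1.09e-26). Nr1i3, the xenobiotic receptor CAR, and Nr1h4, the bile acid receptor FXR, differed by -7.09 and -6.27, both with cerebella at background. Xbp1, a factor of the unfolded protein response, had nearly the same level in both tissues, 10.62 ± 0.07 in WT cerebellum and 10.92 ± 0.07 in WT liver, a difference of -0.30 ± 0.08 (SE, adjusted p = 0.00172). Prox1, which hepatocytes and some neurons express in mouse, had 6.60 ± 0.34 in WT cerebellum and 6.90 ± 0.23 in WT liver (SD, n = 4 each) and did not pass at -0.30 ± 0.18 (SE, adjusted p = 0.132). It passed, lower in cerebellum, after each of the 3 other scalings, up to -1.39 with an adjusted p of 2.15e-07 after quantile normalization.

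All 13 measured genes of the urea cycle and amino acid breakdown were lower in WT cerebellum by at least 1. Cps1, carbamoyl phosphate synthetase, the entry to the urea cycle, had 3.99, 3.60, 2.94 and 3.19 in WT cerebella, against 12.84, 12.98, 12.72 and 12.80 in WT livers. Otc, its next enzyme, differed by -9.09 with cerebella at background, and Bhmt, betaine-homocysteine methyltransferase, by -10.15. Tdo2, tryptophan dioxygenase, which opens the kynurenine route of tryptophan breakdown, had 7.42, 7.69, 7.37 and 6.82 in WT cerebella, 3.60, 3.78, 3.17 and 3.55 in WT brainstems and 12.22, 12.10, 12.04 and 12.03 in WT livers. The difference of cerebellum from liver was -4.77 ± 0.16 (SE, adjusted p = 2.2e-18) and that from brainstem 3.80 ± 0.16 (SE, adjusted p = 3.4e-15). Gldc, the glycine decarboxylase that astrocytes also express, showed the same order at 6.63 ± 0.04 in WT cerebellum, 4.37 ± 0.12 in WT brainstem and 8.48 ± 0.34 in WT liver (SD, n = 4 each).

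The 14 genes of bile acids and cytochromes P450 and the 14 of gluconeogenesis and lipid metabolism were without exception lower in WT cerebellum by at least 1. Cyp2e1, which oxidises ethanol, had 2.72, 3.12, 2.99 and 3.09 in WT cerebella, against 12.87, 12.81, 12.68 and 12.80 in WT livers, -9.81 ± 0.12 (SE, adjusted p = 3.7e-27). Cyp3a11, a drug-metabolising P450, and Slc10a1, the bile acid uptake carrier, differed by -9.14 and -9.16. Cyp27a1, a mitochondrial sterol hydroxylase used outside liver as well, kept 6.85 ± 0.10 in WT cerebellum, against 11.16 ± 0.24 in WT liver (SD, n = 4 each). Fabp1, the liver fatty acid binding protein, and Fbp1, fructose bisphosphatase, differed by -10.33 and -10.02. Smaller differences of that list were those of a pair of fatty acid enzymes. Scd1, stearoyl-CoA desaturase, had 10.20, 9.95, 10.11 and 10.01 in WT cerebella, against 12.83, 12.96, 12.88 and 13.10 in WT livers, and Fasn, fatty acid synthase, differed by -2.20 ± 0.19 (SE, adjusted p = 1.43e-10). Pck1, the rate-limiting enzyme of gluconeogenesis, had only 5.19, 5.01, 5.25 and 4.72 in WT livers in its brightest probe set, with cerebella at background.

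**Figure D3:**
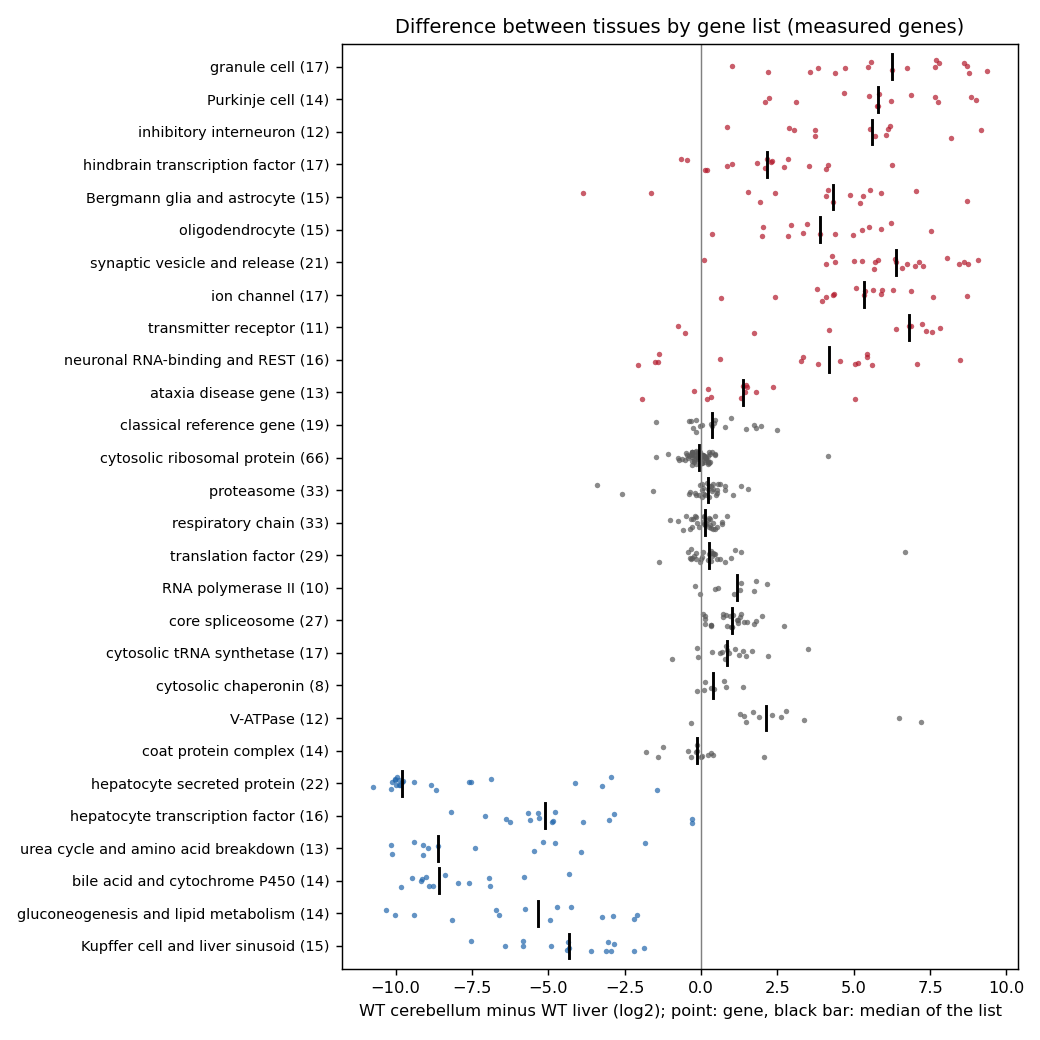
WT cerebellum minus WT liver (log2, horizontal axis) for every measured gene of 28 lists, with list sizes in brackets and a black bar at each median. Cerebellar lists (top) lie to the right of 0, hepatic lists (bottom) to the left, and most housekeeping lists (middle) around 0, with RNA polymerase II, core spliceosome, tRNA synthetase and V-ATPase genes to the right.

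Housekeeping genes were described by how tightly their difference was bounded. A gene was counted as close where the 95% confidence interval of its difference lay wholly between -0.5 and 0.5. Of 260 measured housekeeping genes 120 were close (46.2%), 50 were higher in WT cerebellum by at least 1 and 11 lower. Of all genes with a mean of at least 8 over the 24 arrays, 43.8% were higher and 12.1% lower by at least 1. Most of these arrays are hindbrain, so genes bright only in hindbrain enter that set more easily than genes bright only in liver. Of all genes 14.8% were close, but closeness moved with brightness: 15.3% of genes with a mean of at least 8, 30.6% of those of at least 10, 48% of 229 genes of at least 11 and 63.2% of 57 genes of at least 12. The part of brightness in the housekeeping share was not tested. Closeness also turns on the scaling, and between 97 and 122 of the 260 were close after the 3 other scalings.

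Of 19 measured classical reference genes 6 were close. Rpl13a, a protein of the large ribosomal subunit, had 11.47, 11.56, 11.54 and 11.63 in WT cerebella and 11.34, 11.68, 11.64 and 11.46 in WT livers, a difference of 0.02 with an interval of -0.15 to 0.19. After quantile normalization it was called higher in cerebellum at 0.21 with an adjusted p of 0.0184, and after median centring lower at -0.30 with an adjusted p of 0.00171. Ipo8, an importin, had -0.04 (-0.39 to 0.32) at a low level, 4.54 ± 0.48 in WT cerebellum and 4.58 ± 0.11 in WT liver (SD, n = 4 each), and moved to -0.64 with an adjusted p of 0.0011 after quantile normalization. The ribosomal protein gene Rpl4, the cytochrome c1 gene Cyc1, the succinate dehydrogenase gene Sdha and the elongation factor gene Eef1a1 were close too, at -0.15, -0.15, -0.26 and -0.32. Their signs did not all hold: Rpl4 and Eef1a1 were 0.15 and 0.08 after quantile normalization, and Sdha was 0.43 as a mean over its probe sets.

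Actb, β-actin, had 12.58, 12.64, 12.51 and 12.62 in WT cerebella and 12.002, 12.30, 12.26 and 12.28 in WT livers, and its difference of 0.37 ± 0.08 (SE, adjusted p = 9.56e-05) had an interval of 0.22 to 0.53 that reached just past 0.5. Gapdh, the glycolytic enzyme, differed by 0.46 (0.33 to 0.59), Ppia, cyclophilin A, by 0.42 (0.29 to 0.54) and Atp5b, an ATP synthase subunit, by 0.32 (0.12 to 0.52). All 4 were called higher in cerebellum as deposited, and none of them was called after median centring, where the differences were 0.06, 0.14, 0.10 and 0.00. Rplp0, a stalk protein of the ribosome, was lower in cerebellum by a small step, -0.38 (-0.54 to -0.22).

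Several reference genes differed by more. Tubb5, a β-tubulin, had 10.51, 10.48, 10.66 and 10.62 in WT cerebella, against 7.99, 8.46, 7.84 and 8.02 in WT livers, 2.49 ± 0.11 (SE, adjusted p = 2.84e-16), or 5.62-fold. Ywhaz, a 14-3-3 protein, differed by 1.97, Tfrc, the transferrin receptor, by 1.80, Polr2a, the large subunit of RNA polymerase II, by 1.73, and Top1 and Pgk1, a topoisomerase and a glycolytic kinase, by 0.98 and 0.79. Hprt, of purine salvage, had 10.58, 10.62, 10.71 and 10.59 in WT cerebella, against 9.32, 9.19, 8.98 and 9.14 in WT livers, 1.47 ± 0.07 (SE, adjusted p = 6.53e-15). Gusb, a lysosomal glucuronidase, went the other way at -1.46 ± 0.15 (SE, adjusted p = 5.67e-09), but its probe sets disagreed and their mean gave -0.11 with an adjusted p of 0.302.

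**Figure D4:**
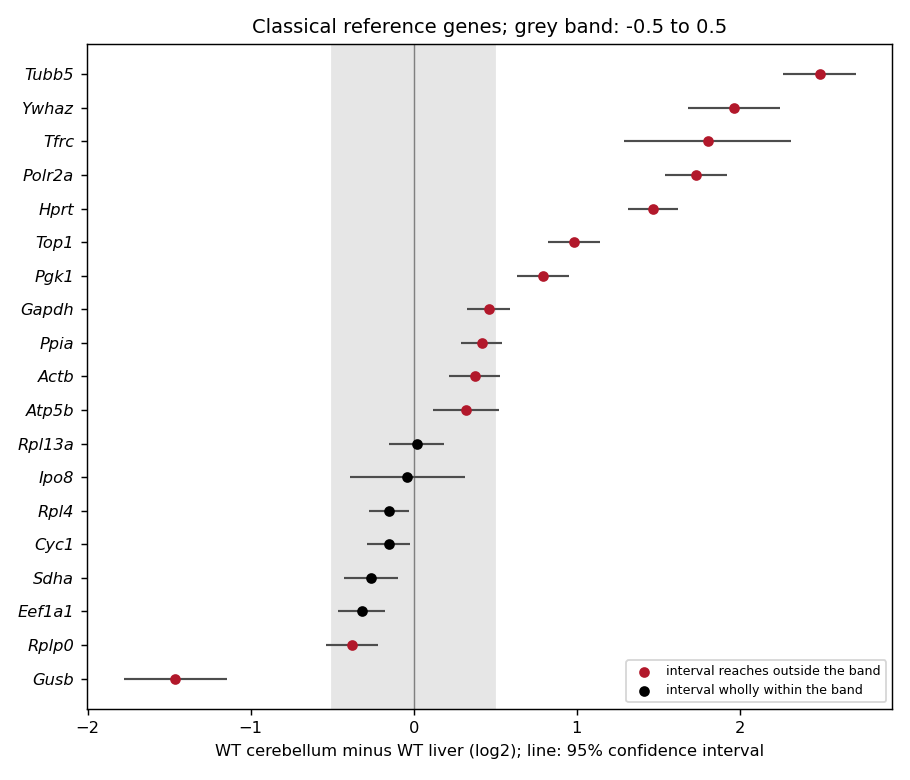
WT cerebellum minus WT liver (log2, horizontal axis) for 19 classical reference genes, with 95% confidence intervals from the fit over all arrays and a grey band at -0.5 to 0.5. Black points mark the 6 genes with intervals wholly inside the band, and Tubb5 and Gusb lie at the ends.

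Cytosolic ribosomal proteins were the tightest list: 51 of 66 were close (77.3%), and the median difference was -0.06. The sign of that median turned with the scaling, to 0.15 after quantile normalization, -0.22 after centring on housekeeping genes and -0.38 after median centring, with 44, 42 and 28 genes close. Rps24 and Rps21, of the small subunit, were at the upper end of the bulk (0.44 and 0.36), and Rps18 and Rps26 at the lower end (-0.75 and -0.73). Only 3 members differed by at least 1. Rps15a had 7.30, 7.04, 7.21 and 7.04 in WT cerebella and 3.11, 2.97, 2.96 and 2.99 in WT livers, all at background, a difference of 4.14 ± 0.16 (SE, adjusted p = 3.73e-17), whereas the median level of the list in WT liver was 11.81. Rps2 was -1.08 ± 0.07 (SE, adjusted p = 3.46e-13) and Rpl22 -1.47 ± 0.07 (SE, adjusted p = 3.45e-15), and the mean over the probe sets of Rpl22 was -0.02. Against WT brainstem 65 of the 66 were lower in WT cerebellum, where 53.2% of genes with a mean of at least 8 were lower.

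In the proteasome 15 of 33 measured subunits were close, and the median difference of 0.24 turned to -0.05 after quantile normalization and -0.08 after median centring. The members that stood apart on the lower side were the 3 catalytic subunits of the immunoproteasome, which replace constitutive subunits in immune cells and under interferon. Psmb9 had 4.22, 4.18, 4.22 and 4.55 in WT cerebella, against 7.82, 8.10, 6.47 and 8.47 in WT livers, -3.42 ± 0.30 (SE, adjusted p = 3.03e-10). Psmb8 had 5.54, 5.65, 5.53 and 5.70 in WT cerebella, against 8.18, 8.58, 7.05 and 8.97 in WT livers, -2.59 ± 0.27 (SE, adjusted p = 4.07e-09), and Psmb10 differed by -1.56 ± 0.15 (SE, adjusted p = 1.05e-09). On the upper side stood Psmc5, an ATPase of the regulatory particle, at 1.53 ± 0.09 (SE, adjusted p = 1.07e-13), and the deubiquitinase Psmd14 at 1.31. Macrophage markers, given below, were also lower in cerebellum, and their part in the immunoproteasome levels was not tested.

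The respiratory chain held 19 close genes of 33, with a median of 0.12 that was -0.20 after median centring and -0.03 after centring on housekeeping genes. Its extremes were small, Atp5o of the ATP synthase at 0.84 ± 0.08 (SE, adjusted p = 4.59e-10) and Uqcrq of complex III at -1.02 ± 0.06 (SE, adjusted p = 4.17e-13). Among 29 translation factors 14 were close, and the median of 0.27 was -0.02 after quantile normalization. Eef1a2, the elongation factor form of neurons and muscle, was far from the others, with 10.76, 10.76, 10.74 and 10.65 in WT cerebella, against 4.11, 4.09, 4.02 and 4.02 in WT livers. Eif4e, the cap-binding protein, was -1.37 ± 0.14 (SE, adjusted p = 3.81e-09) at a low level in its probe set, 3.21 ± 0.13 in WT cerebellum and 4.59 ± 0.37 in WT liver (SD, n = 4 each).

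Genes for RNA synthesis, splicing and tRNA charging were read against other bright genes, of which 43.8% were higher in cerebellum by at least 1 with a median difference of 0.77 (all genes with a mean of at least 8). Among 10 measured subunits of RNA polymerase II 6, among 27 core spliceosome genes 13 and among 17 cytosolic tRNA synthetases 7 were higher in WT cerebellum by at least 1, with medians of 1.18, 0.999 and 0.87. The spliceosome (48.1%) and synthetase (41.2%) shares were thus near that background, which leans to hindbrain as said above. Both lay above the 32.6% of all genes. None of the 3 lists held a gene lower by at least 1. After quantile normalization 1, 2 and 2 genes were left above 1, after median centring 3, 6 and 5, and 1 spliceosome and 1 synthetase gene were lower by at least 1 after quantile normalization. The medians kept their sign under each scaling. Snrnp70, the U1 protein that starts recognition of the 5′ splice site, had 9.84, 9.74, 9.87 and 9.95 in WT cerebella, against 7.43, 7.19, 6.90 and 7.04 in WT livers, 2.71 ± 0.12 (SE, adjusted p = 5.84e-16). Eftud2, a GTPase of the U5 particle, differed by 1.997 and Polr2g, a stalk subunit of the polymerase, by 2.17 ± 0.11 (SE, adjusted p = 7.7e-15). Wars, tryptophanyl-tRNA synthetase, had 7.59, 7.30, 7.34 and 7.57 in WT cerebella, against 4.28, 3.91, 3.60 and 3.99 in WT livers, and Yars, for tyrosine, differed by 2.18. Qars, for glutamine, was -0.97 ± 0.09 (SE, adjusted p = 8.15e-10), but -0.09 as a mean over its probe sets.

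The V-ATPase, the proton pump that acidifies vesicles and loads transmitter, was the housekeeping list farthest from 0, with 11 of 12 genes higher in WT cerebellum by at least 1 and a median of 2.11 (10 genes and 1.72 after quantile normalization). Its brain forms led. Atp6v1g2 had 10.62, 10.56, 10.63 and 10.62 in WT cerebella, against 3.35, 3.32, 3.62 and 3.41 in WT livers, 7.19 ± 0.07 (SE, adjusted p = 1.43e-28), and Atp6v0e2 differed by 6.47. Atp6v1b2, a widely expressed catalytic-head subunit, differed by 3.36 ± 0.14 (SE, adjusted p = 1.54e-16). The exception was Atp6v0e, the partner form of Atp6v0e2, at -0.33 (-0.50 to -0.16). In the coat protein complexes of the secretory route, 7 of 14 genes were close and 3 were lower by at least 1 (6 after quantile normalization). Those 3 were Sar1b, the COPII GTPase needed for lipoprotein export, at -1.80 ± 0.07 (SE, adjusted p = 1.46e-17), its cargo adaptor Sec24a at -1.40 and Copz1 of COPI at -1.24, while Copg1, also of COPI, was higher by 2.05 ± 0.14 (SE, adjusted p = 1.94e-12).

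Pairs of related genes were compared between the tissues, most of them forms of a single enzyme or carrier. The dihydropyrimidinase family, calcium pump and apolipoprotein pairs are family members rather than forms that serve the same reaction. Of 23 pairs listed, both forms of 14 were measured, and in all 14 the form listed as that of brain had the more positive difference. The pairs were listed with these preferences known, so the count has no weight as a test. In 7 pairs the forms were opposite, each past 1. Slc2a3, the neuronal glucose transporter GLUT3, had 10.73, 10.65, 10.64 and 10.60 in WT cerebella, against 3.09, 2.95, 2.62 and 3.16 in WT livers, all at background. Slc2a2, GLUT2 of hepatocytes, had 3.13, 3.09, 3.31 and 3.23 in WT cerebella, against 11.64, 11.27, 11.55 and 11.44 in WT livers, so the tissue differences of the pair were 7.70 and -8.28. Glycogen phosphorylase gave 4.42 for Pygb and -7.69 for Pygl, glycogen synthase 2.33 for Gys1 and -6.70 for Gys2, and pyruvate kinase 4.94 for Pkm and -5.40 for Pklr.

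Lactate dehydrogenase differed in the same way, with Ldhb at 6.03 ± 0.17 (SE, adjusted p = 6.03e-20) and Ldha at -1.67 ± 0.08 (SE, adjusted p = 1.33e-15). Carnitine palmitoyltransferase gave 5.07 for Cpt1c, the brain form, and -3.57 for Cpt1a, and the dihydropyrimidinase family 3.71 for Dpysl2, a growth cone protein, and -8.09 for the catabolic enzyme Dpys. Both forms were on the cerebellar side for the calcium pumps Atp2b2 and Atp2a2 (5.43 and 4.08) and for phosphofructokinase, with Pfkp at 5.04 and Pfkl, the form named for liver, at 0.98 ± 0.14 (SE, adjusted p = 6.17e-07), or -0.09 after quantile normalization. Both were on the hepatic side for acetyl-CoA carboxylase, Acaca at -1.25 and Acacb at -4.24, and for Apoe, the lipid carrier of astrocytes and liver, at -1.50 ± 0.09 (SE, adjusted p = 6.43e-14), with Apoa1 at -10.01. Fabp5 and Arg2 did not pass, at -0.03 with an interval of -0.48 to 0.43 and -0.05 with an interval of -0.29 to 0.19, against -10.33 for Fabp1 and -9.09 for Arg1.

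**Figure D5:**
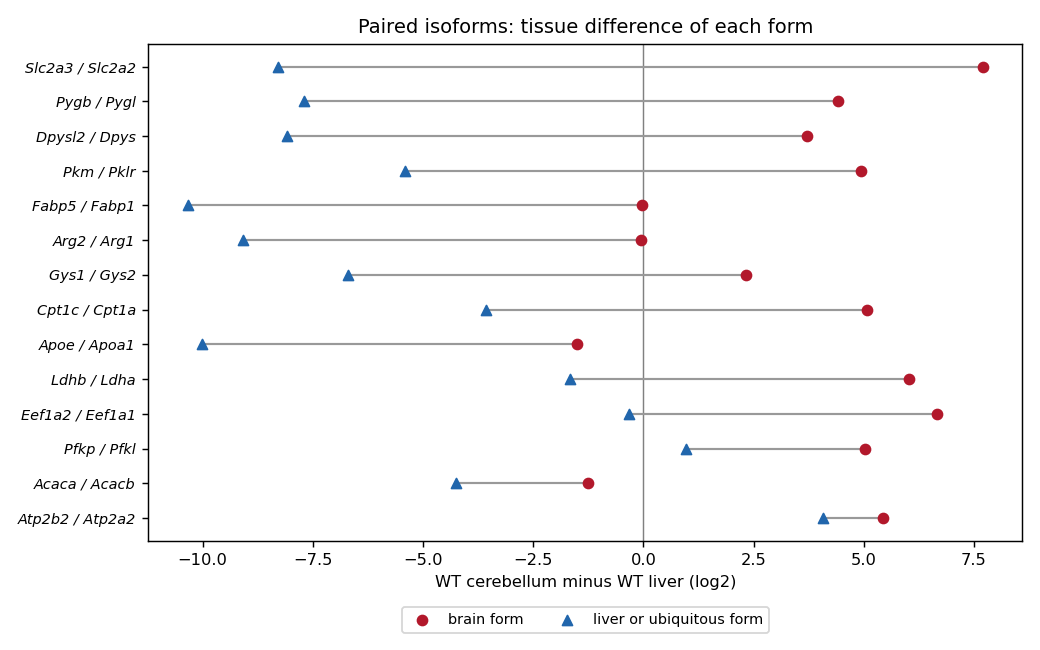
WT cerebellum minus WT liver (log2, horizontal axis) of the brain form (circles) and the liver or ubiquitous form (triangles) of 14 pairs, ordered by the gap between them. The gap is widest for the glucose transporters Slc2a3 and Slc2a2 and narrowest for the calcium pumps Atp2b2 and Atp2a2.

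Other cell types of both tissues were checked by their markers. All 15 genes of Kupffer cells and the liver sinusoid were lower in WT cerebellum by at least 1: Cd5l, a secreted macrophage protein, at -7.52 ± 0.24 (SE, adjusted p = 4.89e-19), and Clec4f, the Kupffer cell lectin, at -5.83, both with cerebella at background. Microglial markers split. Cx3cr1, the fractalkine receptor of microglia, had 6.53, 6.70, 6.60 and 6.64 in WT cerebella, against 3.59, 3.38, 3.47 and 3.65 in WT livers, 3.10 ± 0.10 (SE, adjusted p = 2.84e-19). Csf1r and Lyz2, which all macrophages share, were -1.89 ± 0.23 (SE, adjusted p = 5.57e-08) and -2.37 ± 0.23 (SE, adjusted p = 1.24e-09), and 6 of the 13 markers were lower by at least 1 with 3 higher. Of 12 measured endothelial genes 5 were higher (41.7%) and 4 lower (33.3%) by at least 1, against 32.6% and 20% of all genes. After quantile normalization 2 were higher and 6 lower. At the ends of the list, the barrier endothelium genes Slco1c1, a thyroxine carrier, and Slc2a1, GLUT1, differed by 4.24 and 2.65, while Kdr and Cdh5, a growth factor receptor and a cadherin of endothelium, were -2.96 and -1.52. Globin transcripts were high in both tissues: Hba-a1 had 12.46, 12.52, 12.50 and 13.30 in WT cerebella and 12.18, 12.36, 12.28 and 12.90 in WT livers, and did not pass at 0.27 ± 0.20 (SE, adjusted p = 0.213). The part of blood RNA in other results was not tested.

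Genes that differ between the sexes in mouse liver were read as well, since no source used here states the sex of these animals. Of 7 measured female-biased genes 6, and of 8 measured male-biased genes 4, were lower in WT cerebellum by at least 1, against 20% of all genes. In WT livers Cyp3a41a, a female-biased P450 of mouse liver, had 11.52, 11.49, 11.36 and 11.62. Hsd3b5 and Cyp4a12a were the 2 male-biased genes at background on all 4 WT liver arrays, while that list reached a difference of -4.66 on the liver side. Of the female-biased genes 1 was called higher in cerebellum, at 0.60. The sex of the animals was not tested. Cyp2b9, also female-biased, had 2.81, 3.02, 3.28 and 3.01 in WT cerebella, against 3.61, 10.34, 3.25 and 11.15 in WT livers, high in replicates 2 and 4 and low in 1 and 3. Cyp2b13 had 3.08, 2.84, 3.06 and 2.87 in WT cerebella, against 3.44, 9.60, 2.61 and 10.78 in WT livers. The difference of Cyp2b9 was -4.06 ± 1.11 (SE, adjusted p = 0.00196), and -2.71 with an adjusted p of 0.0135 without WT liver replicate 4. That of Cyp2b13 was -3.65 ± 1.13 (SE, adjusted p = 0.00497), and -2.26 with an adjusted p of 0.0356 without that array. With the 8 WT arrays fitted alone neither passed, Cyp2b9 giving -4.06 with an adjusted p of 0.0517 and Cyp2b13 -3.65 with an adjusted p of 0.0715.

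Immediate early genes, which neuronal activity and handling of tissue can turn on within minutes, were not uniform: 5 of 12 were higher in WT cerebellum by at least 1 and 2 were lower, near the shares of 32.6% and 20% over all genes. After quantile normalization 2 were higher and 3 lower. Fos had 9.09, 8.22, 8.91 and 8.13 in WT cerebella, against 4.80, 4.36, 3.997 and 5.51 in WT livers, 3.92 ± 0.35 (SE, adjusted p = 3.53e-10). Egr1 had 8.97, 8.94, 8.81 and 9.06 in WT cerebella, against 8.02, 8.03, 4.92 and 7.62 in WT livers, and its difference of 1.80 ± 0.59 (SE, adjusted p = 0.00772) was no longer called without WT liver replicate 3 (1.05 with an adjusted p of 0.0549) or after quantile normalization (1.01 with an adjusted p of 0.0948). Myc and Junb were on the liver side at -2.31 ± 0.14 (SE, adjusted p = 3.81e-13) and -1.75 ± 0.25 (SE, adjusted p = 7.22e-07). Nr4a1, an orphan receptor of the same class of genes, was 2.62 ± 0.22 (SE, adjusted p = 7.29e-11).

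The same tissue step was measured in the 4 CAG42 cerebella and 4 CAG42 livers, which share no array with the WT comparison. All 1696 genes at least 3 higher in WT cerebellum were higher in CAG42 cerebellum than in CAG42 liver, 1580 of them by at least 3, and all 840 genes at least 3 lower were lower, 794 by at least 3. These genes were picked for a large WT difference, and the same share was not counted over all genes. Calb1 differed by 8.80 in CAG42 mice and 8.85 in WT mice, Gabra6 by 8.82 and 8.77, Alb by -10.62 and -10.75, Rpl13a by 0.02 and 0.02, and Atxn2 by 1.45 and 1.46. The step itself differed between genotypes for 2 of 17097 genes (0.0117%, interaction term of the same fit), and no member of a list was among them.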

How the data were processed

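Total RNA of cerebellum, brainstem and liver was labelled and hybridised to Affymetrix mouse 430 arrays whose probe set names mark them as perfect-match-only. The deposited values are log2 levels per probe set that the authors made by RMA, with R 2.7.0 named in the submitters' processing notes. RMA usually gives arrays one distribution, but here distributions differed between tissues, so how arrays were normalised together is not settled, and scaling was varied. A log2 difference of very bright or very dim probe sets tends to understate the step in RNA. The number of arrays, 4 per group, limits the precision.

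A linear model with 1 mean for each combination of tissue and genotype was fitted over all 24 arrays with limma 3.58.1 in R 4.3.3 (lmFit, contrasts.fit, eBayes, two-sided tests), after the linear model with empirical Bayes errors that the methods name. Adjusted p-values are Benjamini-Hochberg values over the 45037 probe sets left after 104 control probe sets were taken out. They measure the spread between 4 arrays a group, one per animal. Probe sets were named by the platform's annotation, which gave 1 gene for 28898, several for 551 and none for 15588, and the several and none were not used for genes. A gene is measured by its probe set of highest mean over all arrays. The tissue labels were checked with cell type markers. Of 690 genes in 35 lists 587 were measured. The fit was tested on simulated data. Tables were made with Python 3.11.15 (pandas 2.3.3, scipy 1.17.1, matplotlib 3.10.9).

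Members, lists and pairs were chosen with earlier results of these data known. Genes named were drawn from the 15 with the largest difference in each direction, up to 4 highest and 4 lowest per list, and members that went against their list. Not all of these are given. Every measured classical reference gene, both forms of each measured pair, Atxn2 and Pabpc1 are named too. The background level (per array, the highest nonspecific control probe set) and the shares of close genes at higher brightness were chosen after the data were seen. Alternatives were 8 WT arrays alone, a fixed or random replicate block, array weights, 1 weight per tissue, quantile normalization, centring on medians or on housekeeping genes, a filter on dim probe sets, limma's treat, averaging the probe sets of a gene, and leaving out each WT cerebellum or liver array.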

Additional observations from a re-analysis of the deposited data

Results flagged for a closer look

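In each group of 4 arrays, the highest or lowest array was set apart where its gap to the next took up more of the group's range than Dixon's critical value at the 95% level allows. Of 396 groups looked at, 26 met this, 15 in WT cerebellum and 11 in WT liver. Chance alone gives about 1 in 20 groups. Several of these gaps were small on the log2 scale and arose because the other 3 arrays lay very close together.

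The widest gap was that of Egr1, an immediate early gene, at 4.92 on WT liver replicate 3, against 7.62 to 8.03 on the other livers. The same array was low for the immunoproteasome subunit Psmb10 (8.59, others 9.41 to 9.57) and for Pygb (4.49) and Trf (13.33), and high for Sh3gl2 (3.13). WT liver replicate 1, the liver farthest from its group, was low for Actb (12.00, others 12.26 to 12.30), Atp2b2 (4.20, others all 4.95), Nova2 (3.81, others 4.69 to 4.75) and Pdgfra (2.53). WT liver replicate 2 was high for Alb (13.75) and low for Bhmt (12.54).

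WT cerebellum replicate 4, the lowest of the cerebella for Ttr, Kcnj13, Kl and Folr1, was high for the globin gene Hba-a1 (13.30, others 12.46 to 12.52) and for Psmb9 (4.55, others 4.18 to 4.22), and low for Aldoc (13.11), Eef1a2 (10.65) and Pck1 (2.80). WT cerebellum replicate 2 was high for Atp2b2 (10.64, others 10.03 to 10.04), Rbfox1 (11.56, others all 11.36), Pygl (3.52) and Rpl22 (9.08), and low for Ano10 (5.22, others 5.69 to 5.77) and Atp6v1g2 (10.56). WT cerebellum replicate 1 was high for Gapdh (13.03), Kcna1 (11.08) and Sar1b (9.99) and low for Calb1 (12.29, others 12.35 to 12.36).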

How the results depend on the processing

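As deposited 36824 probe sets were called, and refits without 1 array called 35992 to 37405. At a difference of at least 1 the main count was 21183, and these refits called 20622 to 22095. The filter on dim probe sets tested 20040 and left 18118 calls, 77.7% of them higher in cerebellum, and 13320 at a difference of at least 1. It kept probe sets with a mean of at least 5 over all 24 arrays, most of them hindbrain. Probe sets bright only in hindbrain thus pass more easily than those bright only in liver, so that share says nothing of the tissues. The treat method against a difference of 1 left 16820. The 8 WT arrays alone gave 34883 calls. Counts of close housekeeping genes (120) ran from 114 to 122 with an array left out. They fell to 99 with the 8 WT arrays alone and to 97 after median centring. Calls at a difference of at least 1 summed over the lists (345) ran from 340 to 351 with an array left out and from 308 to 352 under the other settings, and in all 14 pairs the brain form stayed ahead when any array was left out. The replicate block gave 37103 calls and 21204 at a difference of at least 1. Whether replicate numbers pair the tissues was not settled. Deviations of same-numbered arrays correlated at 0.285, 0.122, 0.0775 and 0.141, and each WT cerebellum correlated best with the liver of its own number. Seen from the livers, WT liver replicate 3 correlated better with WT cerebellum replicate 2 (0.0959) than with its own number. The main fit did not use the numbers and took the arrays as independent.

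Of the named genes called as deposited, 5 changed sign under a setting: Atoh1 to -0.106 after median centring, Eef1a1 to 0.083, Pfkl to -0.09 and Rpl4 to 0.146 after quantile normalization, and Sdha to 0.434 as a mean of its probe sets. Of those not called as deposited, Ano10 (-0.82) and Aptx (-0.89) after quantile normalization, Meis2 (-1.27) as a mean of its probe sets and Rpl13a (-0.30) after median centring were called with the other sign. The cause was not tested. List medians of ribosomal proteins, proteasome, translation factors, respiratory chain and endothelium changed sign with the scaling. Averaging the probe sets of a gene lowered the median of every cerebellar list. Among them were inhibitory interneurons (5.609 to 3.449), transmitter receptors (6.817 to 4.068) and neuronal RNA-binding genes with REST (4.189 to 2.252). The 14 close translation factors were 9 with the 8 WT arrays alone, and the 7 close coat protein genes were 4 as means of probe sets or after median centring and 2 after quantile normalization. Leaving out an array ended the call of Cyc1 (WT cerebellum replicates 2 and 3, WT liver replicates 1 and 2), En1 (WT cerebellum replicate 3, WT liver replicates 3 and 4), Pdgfra (WT cerebellum replicate 1, WT liver replicate 1) and Rpl4 (WT cerebellum replicate 2, WT liver replicate 3), all under 0.5 in size. It also ended that of Atoh1 (0.211, WT cerebellum replicates 1 and 2, WT liver replicate 1) and the larger one of Egr1 (1.797, WT liver replicate 3). Ano10 (0.33, higher) and Prox1 (-0.46) also passed without WT cerebellum replicate 2, and Aptx (0.35) without WT liver replicate 2. Of 3737 gene values compared, 3620 were counted as unchanged. For a called gene this means the same direction and a call. For an uncalled gene it means no call and a move within the SD of its arrays, whatever the sign.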
